A study of Rattus norvegicus with 6 samples.

Results

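Hairpin probe sets on a miRNA array are oligonucleotide probes directed at the stem-loop precursors of microRNAs (miRNAs). They were taken here as all rows of the deposited value table whose identifier begins with MI0, the miRBase prefix for a precursor. There were 490 of them among 1277 probe sets, and they covered 449 precursors. The arrays, version 4.0 of the Affymetrix miRNA design, compared cardiac stem cells (CSCs) with and without exosomes from mesenchymal stem cells (MSCs). The group CSC held cells cultured from the heart tissue of 4-week-old rats of the Sprague Dawley strain. The group CSC+Exo held the same kind of cells after 3 days in medium with exosomes, small extracellular vesicles that bone marrow MSCs at passage 4 had released and that were isolated with ExoQuick-TC, a precipitation reagent. Each group had 3 arrays of 1 ug of total RNA, and the labels do not say whether these came from separate cultures, so p-values measure only the spread between the arrays, which may be technical. How the untreated cells were handled beside the treated ones is not described in the labels.

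A miRNA gene is transcribed into a long primary transcript, from which the nuclear enzyme Drosha cuts the hairpin. The hairpin is exported to the cytoplasm, where Dicer removes its loop, and an arm of the remaining duplex is loaded into an Argonaute protein as the mature miRNA. Hairpins are short-lived in most cells, so their steady level is usually far below that of the mature product. An array probe against the stem is complementary to the mature arm as well, and a hairpin signal alone does not separate the 2 RNA forms.

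The sequence of Mir362 shows how much of a hairpin is mature miRNA. It is printed because both of its arms, in capitals, are in the authors' deposited list of 22 differential mature miRNAs. The arms make up 46 of its 65 bases, or 70.8%. It lies at chrX:17926485-17926549 on the plus strand in the RefSeq table of build GRCr8.
Mir362: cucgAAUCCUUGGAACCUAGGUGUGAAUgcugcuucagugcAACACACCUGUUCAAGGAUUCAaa
Over the 402 rat hairpins with an annotated arm in that table, arms covered a median of 44.8% of the bases, with a range from 14.3% to 72.9%. Over the 259 of these with 2 annotated arms the median was 51.2%. Hairpins of related genes also share sequence with each other. Of 414 RefSeq hairpins, 72 (17.4%) had a run of at least 20 bases in common with another, and 2 pairs were identical throughout. Such shared runs are shown by the following pairs, neither of which is identical, in which capitals mark the longest common run, 47 bases in Mir344b-2 and Mir344b-1 and 27 bases in Mir103a1 and Mir103a2. The first pair lies on the minus strand at chr1:124028505-124028575 and chr1:124035661-124035758, the second on the plus strand at chr10:20748474-20748559 and chr3:138963227-138963312.
Mir344b-2: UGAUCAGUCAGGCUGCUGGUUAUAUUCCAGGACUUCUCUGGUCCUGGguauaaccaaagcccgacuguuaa
Mir344b-1: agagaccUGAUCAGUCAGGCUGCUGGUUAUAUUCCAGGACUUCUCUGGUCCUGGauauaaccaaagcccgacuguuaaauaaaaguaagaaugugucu
Mir103a1: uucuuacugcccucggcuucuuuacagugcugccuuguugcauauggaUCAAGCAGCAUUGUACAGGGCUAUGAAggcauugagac
Mir103a2: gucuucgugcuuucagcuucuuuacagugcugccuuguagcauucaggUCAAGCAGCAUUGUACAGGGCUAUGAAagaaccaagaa
These sequences describe hairpins in general. Neither the deposited files nor the RefSeq tables pair the MI0 identifiers with miRNA names, so 0 of the 490 probe sets are named here and none is assigned a sequence. For the same reason the labelled cell type was not checked against hairpins of muscle, endothelial, blood or other marker miRNAs.

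Most hairpin probe sets gave a low signal. All values are log2 signals as deposited. The mean over the 6 arrays had a median of 0.56 across the 490 probe sets and a 75th percentile of 0.77, and 412 (84.1%) lay under 1. A mean of at least 2 was reached by 26 probe sets (5.31%), against 258 of 728 mature probe sets (35.4%), and these 26 are called measurable below. Detection calls are given only for the miRNAs of the authors' list. In the authors' deposited table all 6 calls of not detected belonged to signals of at most 1.46, and no signal of 2 or more was called so. However, 11 signals under 2 were called detected, the lowest of them at 0.82. A limit of 2 therefore leaves out signals that might have been called present. The probe sets just under it were MI0006169_st, MI0006132_x_st and MI0003485_st, with means of 1.88, 1.91 and 1.93, and those just above were MI0003542_st, MI0000861_st and MI0006153_st, with 2.05, 2.15 and 2.16. The number of measurable probe sets was 42 with a limit of 1.5, 14 with a limit of 3, and 18 when a signal of 2 was asked of each array.

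The 26 measurable probe sets belonged to 26 different precursors, with 24 probe sets ending in _st and 2 in _x_st. Only 6 had a mean of at least 5: MI0003481_st (8.32), MI0000642_st (7.00), MI0000972_st (6.98), MI0000896_x_st (6.01), MI0006145_st (5.78) and MI0021533_st (5.13). The arrays differed little in this respect, with 23 to 30 hairpin probe sets at 2 or more on a single array. miRBase numbers precursors in the order of registration. Measurable probe sets numbered 15 of 211 (7.11%) among identifiers from MI0000500 to MI0000999 and 2 of 52 (3.85%) from MI0001000 to MI0005999. They were 5 of 56 (8.93%) among those starting MI0006, 1 of 36 among those starting MI0012 and 0 of 93 among those starting MI0015. From MI0020000 to MI0025999 they were 3 of 42 (7.14%). These 3 were the consecutive identifiers MI0021533, MI0021534 and MI0021535. They lay among 9 probe sets numbered MI0021500 to MI0021599, a narrow range set around them. The only other neighbouring numbers among the measurable precursors were MI0006145 and MI0006146.

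The suffixes tell how specific a probe set is. In Affymetrix naming, _x marks probe sets with some probes that also match other sequences, and _s marks probe sets whose probes are shared by several transcripts. The 490 comprised 438 probe sets ending in _st, 43 in _x_st and 9 in _s_st. All 9 of the last kind repeated another row exactly on every array, in 4 sets: MI0000892, MI0000893 and MI0000894, then MI0000629 with MI0015432, MI0012611 with MI0015968, and MI0015408 with MI0015472. The 490 rows thus hold 485 distinct measurements. None of these shared probe sets was measurable, their highest mean being 0.91.

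For 35 precursors a _st and an _x_st probe set could be compared. Their levels lay close together in most pairs, with a median gap of 0.08 and a gap under 0.25 in 29 of 35. Across pairs the mean signals of both kinds correlated at r = 0.55, or 0.92 without MI0000896. These points share arrays and mostly lie near the floor of the scale. Over the 6 arrays the signals of a pair had a median correlation of 0.89. It reached at least 0.9 in 16 pairs and was below 0 in 4, MI0000827, MI0000831, MI0000854 and MI0000970, which were picked out after their values were seen. In these 4 no probe set had a mean above 1.28, and the members of a pair did not follow each other from array to array.

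MI0000896 departed from the other pairs by its level. Its _x_st probe set gave 6.16, 6.18 and 5.97 on the CSC+Exo arrays and 5.66, 6.06 and 6.02 on the CSC arrays. Its _st probe set gave 1.06, 1.13 and 1.01, and 0.87, 1.00 and 0.91, in the same order. The gap was between 4.79 and 5.11 on every array, 5.01 on average, whereas the next largest gap of any pair was 0.65. The _x_st probe set is the one whose probes also match other sequences, and which RNA it bound was not tested. The group differences of the _x_st and _st probe sets were 0.19 ± 0.15 and 0.14 ± 0.11 log2 (SE, limma, adjusted p = 0.685 and 0.674). After quantile normalization the first of these was -0.18.

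The gap of 0.65 belonged to MI0000845, the only other pair with a measurable member. MI0000845_x_st had signals of 2.78, 2.89 and 2.61 with exosomes and 2.20, 2.24 and 2.03 without. MI0000845_st had 2.08, 2.17 and 1.89 with exosomes and 1.52, 1.51 and 1.69 without. In both probe sets all CSC+Exo arrays lay above all CSC arrays. The differences were 0.61 ± 0.13 and 0.47 ± 0.13 log2 (SE), with limma adjusted p of 0.265 and 0.305, and the first had the smallest unadjusted p among all hairpin probe sets. It did not pass the test. With signals under 2 set to 2 the differences were 0.61 and 0.08 log2, since 4 of the 6 signals of MI0000845_st lay under 2, and with centring on bright mature probe sets they were 0.23 and 0.0958.

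In all 35 pairs, both probe sets differed between the groups in the same direction 24 times, 17 times higher and 7 times lower with exosomes. The differences of both kinds correlated at r = 0.65 across pairs, and the gap between them had a median of 0.09 log2. It was smaller than the combined SE of the pair in 31 of 35. That SE takes the 2 probe sets as independent although they share arrays, so the count cannot measure their agreement. The 5 pairs with the largest gaps were all dim. MI0006132 differed by -0.30 ± 0.16 on its _st and 0.24 ± 0.33 log2 (SE) on its _x_st probe set, where CSC+Exo replicate 2 alone, at 2.72, was high. Without that array the second value was -0.11. MI0000970 differed by 0.35 ± 0.22 and -0.17 ± 0.16 log2 (SE), so that its probe sets pointed in opposite directions. The other three, MI0015423, MI0000933 and MI0015432, had gaps of 0.25, 0.23 and 0.22 log2 with both differences on the same side of 0.

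The comparison of CSC+Exo with CSC asked which precursors differed after exosome exposure. No hairpin probe set passed the test: limma, fitted to all 1218 mature and hairpin probe sets with Benjamini-Hochberg adjustment over them, gave 0 of 490 with an adjusted p under 0.05, and over all probe sets tested the share was 0%. The smallest adjusted p of a hairpin probe set was 0.265. Unadjusted, 28 hairpin probe sets had a p under 0.05 (5.71%), against 12.3% of all probe sets tested. Split by brightness, these were 9 of the 26 measurable (34.6%) and 19 of the 464 dim hairpin probe sets (4.09%), against 34.9% and 5.46% of all mature and hairpin probe sets in the same ranges. With an intensity trend in the limma fit, MI0021533_st, MI0000884_st, MI0021534_st, MI0000876_st and MI0000856_st no longer had an unadjusted p under 0.05 (0.123, 0.151, 0.147, 0.110 and 0.219). MI0003481_st, MI0000845_x_st, MI0000642_st and MI0006145_st stayed under it. Of the 28, 26 were higher with exosomes and 2 lower. Over all 1218 probe sets, 150 had an unadjusted limma p under 0.05. Of these 150, 127 were higher (10.4% of the 1218) and 23 lower (1.89%). The split of the hairpin probe sets depended on scaling. It was 12 higher of 18 after quantile normalization, 20 of 25 after median centring and 1 of 119 when each array was centred on its bright mature probe sets. The shares over all probe sets in these settings are not given here. That last centring moved the median difference of all 1218 probe sets from 0.07 to -0.30 log2.

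Among the 26 measurable probe sets 22 had a higher mean with exosomes and 4 a lower one, with a median difference of 0.33 log2. In 10 of them all CSC+Exo arrays lay above all CSC arrays (38.5%) and in 0 below, where the groups did not overlap upwards in 30.3% and downwards in 3.52% of all 284 mature and hairpin probe sets whose mean was 2 or more. The 464 dim probe sets had a median difference of 0.05, and the groups did not overlap upwards in 46 of them (9.91%) and downwards in 15 (3.23%), against 14.1% and 3.45% over all 1218 probe sets and 9.21% and 3.43% over the 934 with a mean below 2. The median deviation of the 26 from their 6-array means was 0.16, 0.26 and 0.06 log2 on CSC+Exo replicates 1, 2 and 3 and -0.31, -0.14 and -0.05 on CSC replicates 1, 2 and 3. The CSC+Exo arrays were all above the CSC arrays, but CSC+Exo replicate 3 and CSC replicate 3 were only 0.11 log2 apart. Mature probe sets of like brightness were also mostly higher. In the range of means from 5 up to 8, 5 of 5 hairpin and 74 of 88 mature probe sets were higher, with medians of 0.52 and 0.57. In the range from 3 up to 5 these counts were 7 of 8 and 34 of 55, with medians of 0.44 and 0.30. From 2 up to 3 they were 9 of 12 and 18 of 32, with medians of 0.26 and 0.18. After quantile normalization 18 of the 26 measurable hairpin probe sets were higher, with a median of 0.16, and with each array centred on bright mature probe sets 12 of 26, with a median of -0.05. The median signal of the hybridization controls was 11.56, 11.62 and 11.43 on CSC+Exo replicates 1 to 3 and 11.18, 11.50 and 11.94 on CSC replicates 1 to 3, and its part in these differences was not tested.

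The brightest hairpin probe set, MI0003481_st, had signals of 8.73, 8.71 and 8.46 with exosomes and 8.10, 8.07 and 7.88 without. The groups did not overlap, and the difference was 0.62 ± 0.13 log2 (SE), or 1.54-fold, with a limma adjusted p of 0.265. It shrank to 0.07 after quantile normalization and to 0.24 with centring on bright mature probe sets. MI0000642_st had 7.48, 7.66 and 7.08 with exosomes and 6.25, 7.00 and 6.55 without. Here CSC+Exo replicate 3 and CSC replicate 2 nearly met. This was the largest difference of a measurable probe set in the higher direction, 0.81 ± 0.24 log2 (SE) or 1.75-fold (adjusted p = 0.305). It was 0.25 after quantile normalization and 0.43 with centring on bright mature probe sets.

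MI0006145_st had 6.37, 6.39 and 5.74 with exosomes and 5.32, 5.58 and 5.27 without, a difference of 0.77 ± 0.21 log2 (SE, limma adjusted p = 0.305) that became 0.37 after quantile normalization. With centring on bright mature probe sets, MI0006145_st differed by 0.40. Its CSC+Exo replicate 3 was the array nearest to the untreated level. Without that array the difference was 0.99 and the adjusted p 0.0380. The share of all mature and hairpin probe sets that passed in that setting is not given here. The neighbouring identifier MI0006146_st differed less, with 3.25, 3.41 and 3.04 against 3.09, 2.88 and 2.87, so that its groups overlapped, at 0.29 ± 0.14 log2 (SE, adjusted p = 0.494).

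The 3 consecutive precursors did not all behave alike. MI0021533_st had 5.40, 5.29 and 5.48 with exosomes and 4.84, 4.84 and 4.94 without, and MI0021534_st had 4.99, 4.96 and 5.18 with exosomes and 4.32, 4.54 and 4.78 without. Neither overlapped between groups, and in both CSC+Exo replicate 3 was the highest array, unlike in the 3 brighter probe sets above. Their differences were 0.52 ± 0.11 and 0.50 ± 0.16 log2 (SE, limma adjusted p = 0.265 and 0.305), or 0.16 and 0.20 after quantile normalization. With centring on bright mature probe sets they were 0.14 and 0.13. MI0021535_st overlapped, with 3.95, 3.87 and 3.91 against 3.62, 3.96 and 3.87, a difference of 0.10 ± 0.13 log2 (SE, adjusted p = 0.831) that was -0.06 after quantile normalization. Whether the third differed from the first 2 was not tested.

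Higher signals without overlap were also measured for MI0000884_st, MI0000876_st and MI0000856_st. MI0000884_st had 5.09, 5.39 and 5.05 with exosomes and 4.51, 4.72 and 4.82 without. MI0000876_st had 4.96, 5.01 and 4.94 with exosomes, and 3.87, 4.57 and 4.65 without, where CSC replicate 1 was the low array. MI0000856_st had 4.01, 4.22 and 4.00 with exosomes and 3.84, 3.52 and 3.70 without. The differences were 0.49 ± 0.15, 0.61 ± 0.22 and 0.39 ± 0.14 log2 (SE), with limma adjusted p of 0.305, 0.356 and 0.351. After quantile normalization they were 0.15, 0.28 and 0.17, and with centring on bright mature probe sets 0.12, 0.23 and 0.014. Without CSC replicate 1, the difference of MI0000876_st was 0.36. MI0000972_st, the third brightest, overlapped, at 7.31, 7.41 and 6.64 against 6.55, 7.00 and 6.95, and its difference of 0.29 ± 0.24 log2 (SE, adjusted p = 0.697) became -0.21 after quantile normalization. MI0000589_st also overlapped between groups, at 2.83 ± 0.18 with and 2.48 ± 0.16 without exosomes (SD, n = 3). It differed by 0.35 ± 0.15 log2 (SE, limma adjusted p = 0.410).

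All 4 measurable probe sets with a lower mean in CSC+Exo had overlapping groups. MI0000633_st had 1.27, 2.01 and 4.02 with exosomes and 3.62, 3.90 and 3.72 without. CSC+Exo replicates 1 and 2 lay below every untreated array and replicate 3 above all of them. The difference was -1.31 ± 0.66 log2 (SE, limma adjusted p = 0.498). It was -2.11 with an adjusted p of 0.0222 when CSC+Exo replicate 3 was left out, and -0.73 without CSC+Exo replicate 1. For the first of these settings the share of all probe sets that passed is not given here. MI0012606_st likewise had its CSC+Exo replicate 3 above and the other two below every untreated array, with 1.53, 0.40 and 3.20 against 2.94, 2.80 and 2.30, and differed by -0.97 ± 0.66 log2 (SE, adjusted p = 0.633). It was -1.71 without CSC+Exo replicate 3 and -0.32 without replicate 2 of that group. MI0000916_st and MI0006114_st had differences of -0.26 ± 0.26 and -0.07 ± 0.36 log2 (SE, limma adjusted p = 0.750 and 0.958). Each was above 0 when CSC replicate 2 was left out, and the second also without CSC+Exo replicate 3.

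MI0006133_st varied more within the groups than between them. Its signals were 2.92, 2.78 and 5.12 with exosomes and 1.87, 2.62 and 4.75 without, so that replicate 3 was the high array in both groups. The difference of 0.52 ± 0.91 log2 (SE, limma adjusted p = 0.891) was 1.36 without CSC replicate 3 and -0.23 without CSC+Exo replicate 3. Over the 26 measurable probe sets CSC+Exo replicate 3 and CSC replicate 3 had the highest correlation of any 2 arrays, r = 0.984. CSC+Exo replicate 3 correlated with CSC+Exo replicates 1 and 2 at 0.910 and 0.880, the second being the lowest of the 15 pairs of arrays. These correlations share the differences in probe brightness and describe the arrays only.

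The remaining 7 measurable probe sets had means of 2.05 to 2.77 and differences of 0.03 to 0.52 log2, with limma adjusted p of 0.498 to 0.985. In only 1 of them, MI0000952_st, did the groups not overlap. Among the dim probe sets, MI0006154_st and MI0006113_x_st had the smallest unadjusted p. Their signals were 1.02 ± 0.15 against 0.53 ± 0.07 and 0.53 ± 0.14 against 0.06 ± 0.03 (SD, n = 3), and both had a limma adjusted p of 0.302. The 2 hairpin probe sets that were lower at an unadjusted p under 0.05, MI0000602_st and MI0015437_st, were named after their values were seen. Their differences were -0.79 ± 0.28 and -0.40 ± 0.16 log2 (SE, limma adjusted p = 0.356 and 0.385), with means of 1.32 and 0.71.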

How the data were processed

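The deposited values of the 6 arrays are log2 signals, as the authors' note sheet says. Per the submitters' processing notes, Affymetrix Expression Console and MAS5 were used (no versions given), but per the file headers of the authors' list it was RMA with detection above background. It is not settled which of these made the values. The signals of the 22 listed miRNAs were identical in list and table. Normalization between arrays can hide an overall gain or loss. Detection calls, another deposited column kind, were read for these 22 only.

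All 6 columns were matched by name, with groups from the sample titles. The 728 mature and 490 hairpin probe sets were fitted together with limma 3.58.1 in R 4.3.3 (lmFit and eBayes, no trend, not robust), CSC+Exo minus CSC, with Benjamini-Hochberg adjustment over all 1218 and a threshold of 0.05. The 59 control probe sets were left out. The fit was tested on simulated data. Each value column is a single array, and the number of arrays limits the precision. Other calculations used Python 3.11.15, pandas 2.3.3 and numpy 2.4.6.

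Members, lists and the naming rule were chosen with earlier results of these data known. The rule names hairpin probe sets whose mean is 3 or more, up to 10 higher and 10 lower measurable ones by p, the 5 smallest p, pairs with a measurable member and the 5 pairs with the largest gap. Planned lists of hairpin families and cell type markers had 0 named members and gave no values. Alternatives were quantile normalization, median centring, centring on mature probe sets whose mean is 5 or more, a floor of 2, other sets of probe sets in the fit, an intensity trend, robust fitting, a block for the replicate number and the omission of each array in turn. Counting identical probe sets once was added after seeing the data.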

Additional observations from a re-analysis of the deposited data

How the results depend on the processing

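The count of hairpin probe sets with an adjusted p under 0.05 was 0 in all settings with 6 arrays and ran from 0 to 3 when an array was left out. The 3 appeared without CSC+Exo replicate 3: MI0000633_st, MI0006145_st and MI0000915_st, the last outside the naming rule. The share of all mature and hairpin probe sets that passed without that array is not given here. Whether hairpin probe sets passed more or less often than the others in that setting was therefore not tested. The count at an unadjusted p under 0.05, 28 with all arrays, ran from 21 to 45 on leaving out an array, the 45 again without CSC+Exo replicate 3. It was 18 after quantile normalization, 119 with centring on bright mature probe sets, 9 with signals under 2 set to 2 (39 probe sets tested) and 7 when the fit held only the 284 mature and hairpin probe sets whose mean was 2 or more, 26 of them hairpin. With hairpin probe sets alone it was 40, and with an intensity trend 24. In the fit that gave 28, 12.3% of all 1218 probe sets had such a p. The shares in the other settings, the replicate block below included, are not given here. Those counts therefore cannot be read as particular to hairpin probe sets. Centring on bright mature probe sets moved the median difference of all 1218 from 0.07 to -0.30 log2. The median difference of the measurable probe sets was 0.33 log2, from 0.22 to 0.40 on leaving out an array, 0.16 after quantile normalization, -0.0488 with centring on bright mature probe sets, 0.20 with a limit of 1 for measurable and 0.50 with a limit of 3. Measurable probe sets numbered 78, 42 and 14 with limits of 1, 1.5 and 3. With the replicate block 22 had an unadjusted p under 0.05 and 0 an adjusted one. Deviations of same-numbered arrays correlated at 0.08, 0.33 and 0.33. CSC+Exo replicates 2 and 3 correlated best with the CSC array of their own number, but CSC+Exo replicate 1 with CSC replicate 2, at 0.30. Deviations from the mean of 3 arrays sum to 0, so these correlations depend on each other. They cannot decide whether the numbers pair the arrays. The median gap in group difference was 0.09 log2 over the 2 pairs with a measurable member, and 0.20 over the same 2 after quantile normalization. Over all 35 pairs it was 0.09 log2 with the values as deposited. Of 537 values of named probe sets under alternatives, 25 changed sign. After quantile normalization these were MI0000896_x_st (-0.18), MI0000972_st (-0.21) and MI0021535_st (-0.063). With centring on bright mature probe sets they were MI0000589_st (-0.0294), MI0000896_st (-0.24), MI0000896_x_st (-0.19), MI0000970_st (-0.028), MI0000972_st (-0.0878), MI0006132_x_st (-0.14), MI0006146_st (-0.087), MI0015423_st (-0.30), MI0015423_x_st (-0.052), MI0015432_st (-0.0765), MI0015432_x_st (-0.30) and MI0021535_st (-0.28), that centring having taken 0.38 log2 off every difference. On leaving out an array the ranges of those that changed sign were -0.0201 to 0.21 for MI0015432_x_st, -0.11 to 0.47 for MI0006132_x_st, -0.34 to 0.27 for MI0006114_st, -0.23 to 1.36 for MI0006133_st, -0.0166 to 0.21 for MI0015423_st, -0.0039 to 0.17 for MI0021535_st and -0.49 to 0.0263 for MI0000916_st. The cause of these changes was not tested. Signals near the floor of the scale limit what the 464 dim probe sets can show.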
